A study of Homo sapiens with 12 samples.

Results

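The 66 replication-dependent histone genes were followed by class through all treatments of EGI-1 and HUCCT1 cells. They were picked by symbol alone, as H2AC, H2BC, H3C or H4C followed by digits or as the linker histone genes H1-1, H1-2, H1-3, H1-4 and H1-5, without pseudogenes, and no measured value entered that choice. They are 66 of the 60651 genes counted, namely 5 genes of class H1, 15 of H2A, 18 of H2B, 13 of H3 and 15 of H4. Of these, 54 lie on chromosome 6, 11 on chromosome 1, and H4C16 lies on chromosome 12. H2AC18 and H2AC19 meet the same rule, but no counted gene carried these symbols, so they were not analysed here.

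Histones H2A, H2B, H3 and H4 form the protein core of the nucleosome around which DNA is wound, and H1 binds the linker DNA between nucleosomes. The replication-dependent genes supply these proteins during S phase, when freshly copied DNA is packaged, and their mRNAs are degraded soon after DNA synthesis is halted. These mRNAs carry no poly(A) tail. They end in a short stem-loop, which the stem-loop binding protein SLBP holds during 3′ end processing, translation and decay.

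Both lines are established human cholangiocarcinoma lines, derived from cancers of the bile duct. EGI-1 cells were exposed for 72 h to vehicle, to decitabine at 0.5 µM, to talazoparib at 200 nM, or to these doses of both agents, which is called the combination below, and HUCCT1 cells for 72 h to vehicle or to decitabine at 1 µM, with 2 libraries in each of the 6 groups. Decitabine is a nucleoside analogue that enters replicating DNA and traps DNA methyltransferases, and talazoparib inhibits and traps PARP enzymes, which sense DNA breaks. The names of the talazoparib libraries carry a number other than the dose given in the labels and the methods, and the labels do not say whether replicate libraries came from separate cultures, so p-values here measure the spread between these libraries, which may be technical.

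Total counts per library ran from 23139065 to 33181930 in EGI-1 and from 32519985 to 34965627 in HUCCT1. Levels are given in CPM, a gene's count scaled to a common library total after TMM factors over all 12 libraries. Of the bile duct markers, KRT19 lay between 1460 and 3067 CPM, KRT8 between 2188 and 5035 CPM and EPCAM between 149 and 287 CPM over all libraries, KRT7 was at 39.0 to 69.5 CPM in EGI-1 and at 4033 to 7506 CPM in HUCCT1, and the hepatocyte markers ALB and APOB to at most 0.219 CPM. EGI-1 combination replicate 2 stood apart in transcripts of blood cells. It held 381 counts of PTPRC, which encodes the leukocyte surface protein CD45, and 148 of CD3E, a T cell receptor subunit, where no other EGI-1 library held more than 7 and 4. The 3 leukocyte markers PTPRC, CD3E and CD68 summed to 17.6 CPM there and to between 0.0360 and 0.601 CPM in the other EGI-1 libraries, and CD68 was at 7 counts against at most 10. Results that rest on this library are therefore given with and without it, and the part of these transcripts in the results was not tested.

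The stem-loop itself was found in annotated transcripts of 63 of the 66 members, and not in those of H2BC10, H4C13 and H3C6. The ends of 6 leading members are printed because this element marks these mRNAs, with the 16 bases of the stem-loop in capitals and the flanking bases in lower case, 5′ to 3′ and as DNA letters, from GENCODE 44 on GRCh38.
H1-2: caaaaGGCTCTTTTCAGAGCCacca
H2AC6: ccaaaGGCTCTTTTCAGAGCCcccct
H2AC11: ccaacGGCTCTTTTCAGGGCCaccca
H2BC12: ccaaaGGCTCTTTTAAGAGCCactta
H3C2: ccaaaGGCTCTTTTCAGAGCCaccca
H4C2: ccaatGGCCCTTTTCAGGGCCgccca
The form printed for H1-2, H2AC6 and H3C2 was shared by 38 members of classes H1, H2A, H2B and H3, and the form of H2BC12 by 8. All 14 H4 members with a stem-loop had a form of their own class, 10 of them that of H4C2. H2AC11 alone carried its form.

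The classes also differed in the letters of their promoters, which the choice of members did not use. In windows from 250 bases before to 50 bases after the gene start, held in RefSeq on GRCh38.p14 for 61 members, the octamer ATTTGCAT was searched on both strands, a motif bound by POU2F1 (OCT1). It occurred in 11 of 14 H2A and 14 of 18 H2B windows and in no window of H1, H3 or H4, against 1.8% of 35116 windows of all genes. The core GGTCCG of the site bound by HINFP, a factor of H4 promoters, occurred in 12 of 13 H4 windows and in 1 each of the H2A, H2B and H3 windows, against 11.3% of all. The CCAAT box was present in all 48 windows of the other classes and in 3 of 13 H4 windows, against 34.6% of all. Stretches of 3 members are printed with the motif in capitals, on the strand of the gene.
H2BC12: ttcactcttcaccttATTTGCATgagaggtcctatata
H2BC4: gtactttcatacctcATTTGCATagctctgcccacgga
H4C2: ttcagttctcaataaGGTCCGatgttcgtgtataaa
The H2BC12 stretch lies at chr6:27146882-27146919 on the minus strand, the H2BC4 stretch at chr6:26124027-26124064 on the minus strand and the H4C2 stretch at chr6:26027309-26027344 on the minus strand. The octamer of H2BC4 lies in the stretch it shares with the divergent gene H2AC6. These matches describe letters and say nothing on binding in these cells.

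In vehicle-treated EGI-1 cells the members were abundant in every class. The H1 members summed to 1363 and 1361 CPM in the 2 libraries, the H2A members to 2222 and 1936, the H2B members to 2219 and 2045, the H3 members to 2155 and 1891, and the H4 members to 993 and 837. Because H4 transcripts are short, genes were set against each other only as CPM per kilobase of annotated exon, a measure that is low for the 18 members with long annotated transcripts. On that scale, as the mean of both libraries, H3C2 led with 1063, followed by H2AC11 with 840, H2BC12 with 803.7, H3C7 with 759 and H3C8 with 716.8. The leading H1 gene was H1-2 with 619.9 and the leading H4 gene H4C2 with 494.

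How far a class rested on few genes differed. H1-2, H1-5 and H1-4 held 93.4% of the H1 counts in EGI-1 vehicle cells, whereas the first 3 genes by counts of H2A (H2AC11, H2AC14 and H2AC6) held 46.8%, those of H2B (H2BC12, H2BC4 and H2BC18) 42.0%, those of H3 (H3C2, H3C7 and H3C8) 62.9% and those of H4 (H4C2, H4C8 and H4C3) 51.7%. At the other end, 11 of 66 members were under 1 CPM there. H2AC1, H2AC15 and H2BC1 were at 0 in all 8 EGI-1 libraries, and H2BC3, H3C3, H3C4 and H4C7 had at most 3, 3, 11 and 3 counts in any of them. These 7 did not pass the filter on low counts, so 59 members were tested in EGI-1. In HUCCT1, 62 members were tested and H2AC1, H2AC15, H3C4 and H4C7 were not, with at most 11, 0, 7 and 0 counts. Some members share sequence and their counts are uncertain, since no source says how reads with several matches were counted. It holds for H2AC13 with H2AC14, H4C11 with H4C12, H4C14 with H4C15, and H3C14 with H3C15 and H3C13. It holds too for H2AC7, H3C4 and H2AC17, which lie in exons of other genes. Some 100-base stretches of H2BC18, H2BC12, H2BC26 and H2AC20 also occur in other genes, so their values below carry this uncertainty as well. For H2BC6, H2BC15 and H2BC21 only a small part of such stretches is shared. H4C3 overlaps H2BC4 on the opposite strand, and whether counting was stranded is not given in the sources used here.

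With decitabine alone in EGI-1, every histone class overlapped its vehicle libraries. Class sums were between 95.1% (H3) and 98.9% (H1) of vehicle. H1, for example, was at 1271 and 1423 CPM, on both sides of the vehicle libraries. None of the 59 tested members was called (adjusted p under 0.05, edgeR with Benjamini-Hochberg adjustment), where 0.544% of 22406 genes were called. With DESeq2 the count was also 0, and at an unadjusted p under 0.05 it was 3. The median log2 fold change of the members was −0.03.

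Talazoparib alone was accompanied by lower levels in all classes. Sums were between 67% (H3) and 71.1% (H2A and H4) of vehicle, with H1 at 943 and 966 CPM, H2A at 1430 and 1525, H2B at 1440 and 1472, H3 at 1366 and 1347, and H4 at 671 and 630. Each of these values lay under both vehicle libraries of its class. With 2 libraries against 2, an exact permutation test of such a sum cannot go below p = 0.33, so class sums are given without a test. By gene, 44 of 59 members were called lower and 0 higher, where 1.29% of all genes were called lower and 4.12% in either direction. The median log2 fold change was −0.56 over the members and −0.003 over all genes tested. All 16 H2B members tested were called lower, next to 4 of 5 H1, 10 of 13 H2A, 7 of 11 H3 and 7 of 14 H4 members. H2BC14 had the largest log2 decrease with −1.15 (SE 0.151), at 5.42 and 4.98 CPM against 11.9 and 11.1 in vehicle. Single libraries moved the smaller counts: 4 H2A and 3 H4 members were called without EGI-1 vehicle replicate 1, 6 H2A and 4 H4 members without talazoparib replicate 1, and 4 H3 members without talazoparib replicate 2.

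**Figure D1:**
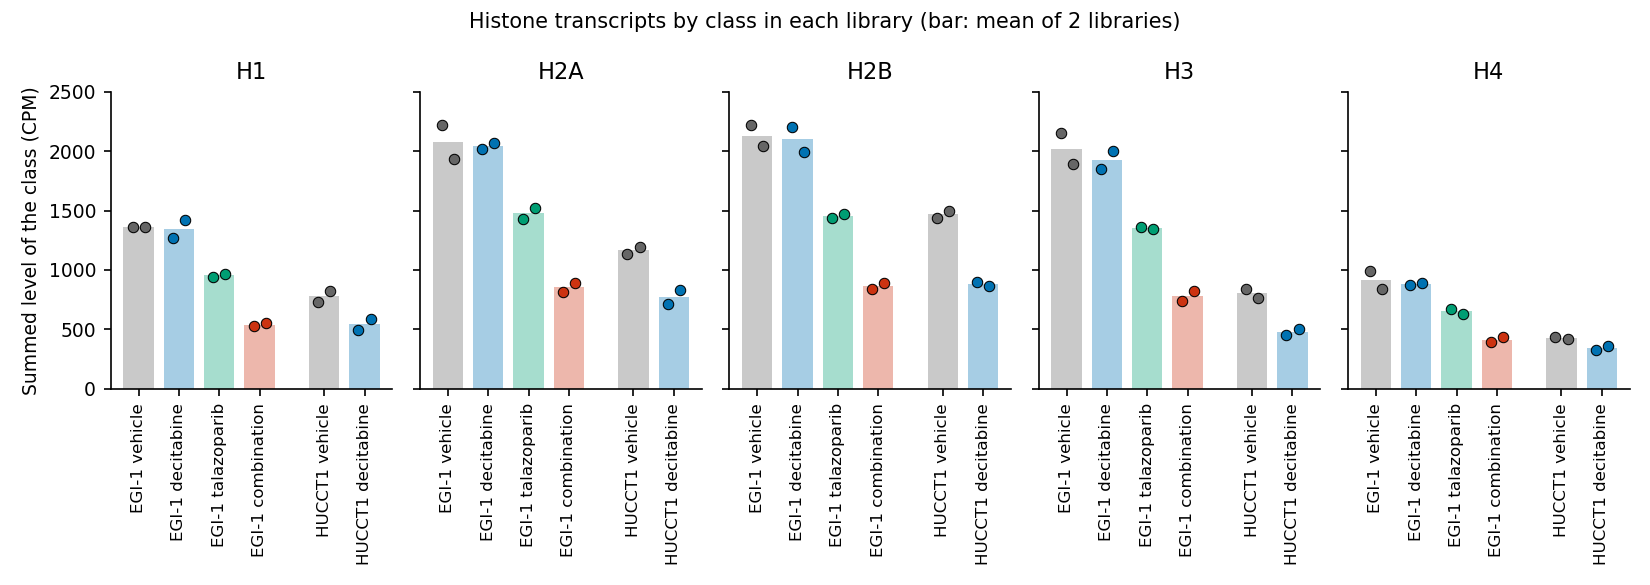
Summed level of each histone class in CPM (vertical axis, from 0) in the 6 groups; points are the 2 libraries of a group and bars their mean. In EGI-1 the combination libraries sit lowest in every class, from 391 CPM in H4 to 892 CPM in H2A, and in HUCCT1 the decitabine libraries sit below the vehicle libraries in every class.

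With the combination the levels of all classes were lower still. H1 was at 523 and 550 CPM, H2A at 811 and 892, H2B at 840 and 890, H3 at 738 and 826, and H4 at 391 and 433, and all of these values lay below both talazoparib libraries of the class. The sums were 39.4% of vehicle for H1, 41% for H2A, 40.6% for H2B, 38.7% for H3 and 45% for H4. The members as a whole summed to 3304 and 3591 CPM, against 8952 and 8069 in vehicle. The H4 share of all member counts was 11.8% and 12.1%, against 11.1% and 10.4% in vehicle, 10.6% and 10.7% with decitabine, and 11.5% and 10.6% with talazoparib. In bulk RNA, fewer cells in S phase and less histone RNA in each of them cannot be told apart.

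Of the 59 members tested, 53 were called lower and 0 higher with the combination (edgeR, Benjamini-Hochberg), where 7.61% of all genes were called lower and 18.7% in either direction. Per class these were 4 of 5 H1, 11 of 13 H2A, 16 of 16 H2B, 10 of 11 H3 and 12 of 14 H4 members. The class medians of the log2 fold change lay close together, at −1.31 for H1, −1.28 for H2A, −1.43 for H2B, −1.32 for H3 and −1.27 for H4, beside −0.03 over all genes tested. Without combination replicate 2, 51 of 60 members were called lower and 0 higher, and the class medians lay between −1.35 in H4 and −1.52 in H2B. The 6 members not called were H1-1, H2AC7, H2AC17, H3C14, H4C4 and H4C11, and in vehicle each was under 10 CPM.

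Among the H1 genes, H1-5 went from 461 and 455 CPM in vehicle to 163.6 and 166.2 with the combination, and was at 429 and 466 with decitabine and at 307.1 and 308.7 with talazoparib. Its log2 fold change with the combination was −1.48 (SE 0.057, edgeR adjusted p = 3e-11), while H1-4 changed by −1.31 (SE 0.068). H1-3 had the largest decrease of its class with −1.72 (SE 0.097), from 93.7 and 86.0 CPM to 24.8 and 29.7. H1-1 was near silent in EGI-1, with 15 and 2 counts in vehicle and 6 and 7 with the combination.

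In class H2A, H2AC11 was at 448.5 and 379.8 CPM in vehicle and at 158 and 184 with the combination, with decitabine at 369.5 and 403 and talazoparib at 288 and 288. The log2 fold changes of H2AC11 (−1.28, SE 0.083), H2AC14 (−1.16, SE 0.073) and H2AC6 (−1.18, SE 0.067) differed little from the class median. H2AC16 had the largest decrease, −1.64 (SE 0.092), from 113 and 98.3 CPM to 35.5 and 32.8. H2AC7, with 16 and 15 counts in vehicle and 16 and 16 with the combination, was not called (log2 fold change 0.13, SE 0.386), and it lies within exons of another gene.

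In class H2B, the leading gene H2BC12 had one of the smaller decreases. It was at 404 and 391 CPM in vehicle, at 294 and 301 with talazoparib and at 190 and 205 with the combination, a log2 fold change of −1.02 (SE 0.062). H2BC18, on chromosome 1, went from 224 and 202 CPM to 69.8 and 66.8 (−1.65, SE 0.084). The largest decrease of all members was that of H2BC14, a gene of low level, from 11.9 and 11.1 CPM in vehicle to 2.21 and 2.14 with the combination, or 54 and 65 counts, and at 13.1 and 9.75 CPM with decitabine (−2.42, SE 0.17, edgeR adjusted p = 2.9e-08). H2BC15 had the smallest decrease of the class (−0.99, SE 0.067).

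In class H3, the most abundant member H3C2 was at 573 and 513 CPM in vehicle, at 513 and 557 with decitabine, at 362 and 364.5 with talazoparib and at 206.5 and 232 with the combination (−1.32, SE 0.069). H3C12 had the largest decrease of its class, from 105 and 97.4 CPM to 23.8 and 27.0 (−2.00, SE 0.078, edgeR adjusted p = 3e-11). H3C6, for which no stem-loop was found, had the smallest, from 22.0 and 17.3 CPM to 11.7 and 12.6 (−0.71, SE 0.117). All 3 members of any class without a stem-loop were called lower, with a median of −1.34.

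In class H4, H4C2 was at 208 and 175 CPM in vehicle and at 72.2 and 74.8 with the combination (−1.39, SE 0.083). H4C3 had a smaller decrease, from 159 and 123 CPM to 76.2 and 92.0 (−0.75, SE 0.13). It was not called when the fit held only the 4 libraries of both arms (adjusted p = 0.17). H4C15 had the largest decrease (−1.89, SE 0.360) on 36 and 35 counts against 7 and 11, and its reads cannot be separated from those of H4C14. H4C4 was near silent, with 12 and 8 counts against 9 and 5.

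**Figure D2:**
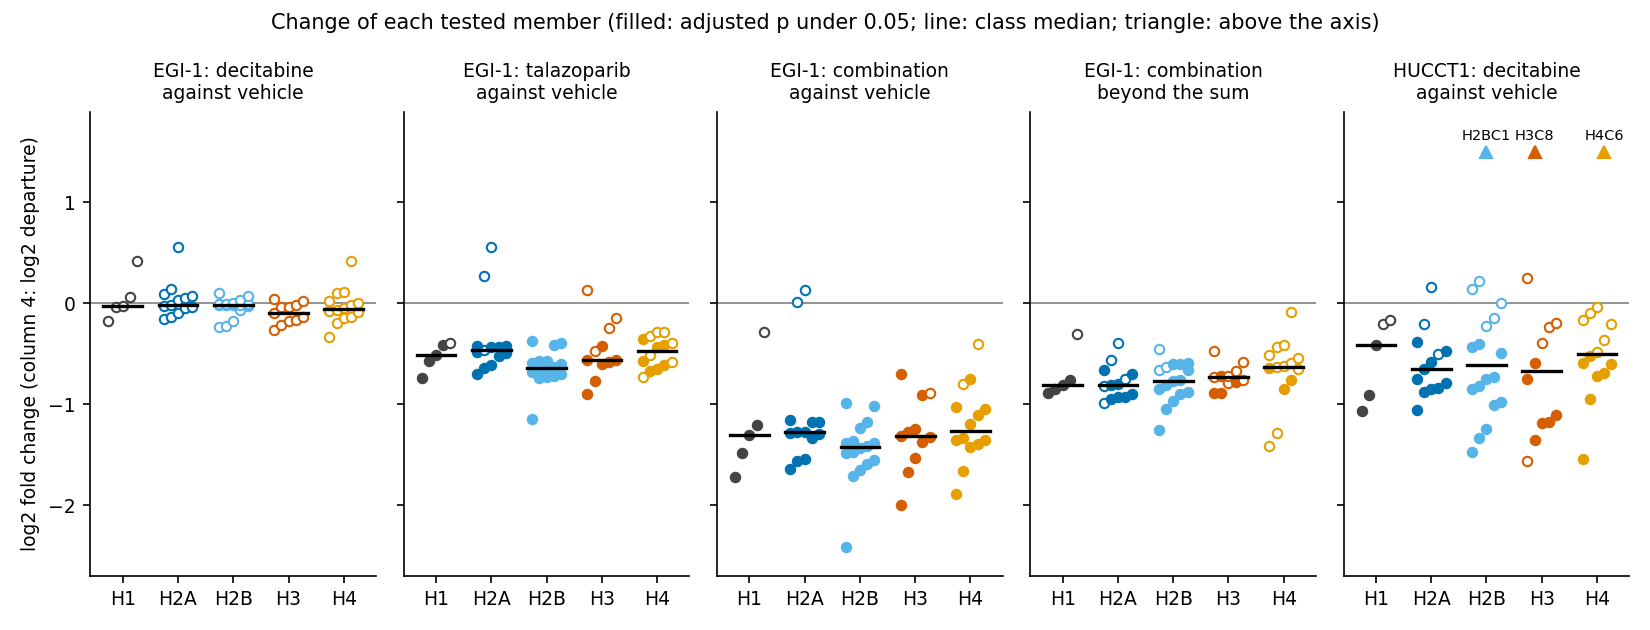
The log2 fold change of each tested member by class (vertical axis), in 4 comparisons against vehicle and, in column 4, the log2 difference between the combination and both single effects added up; filled points have an adjusted p under 0.05, lines are class medians and triangles lie above the axis. Nearly all points lie near 0 with decitabine in EGI-1, class medians lie between −1.27 and −1.43 with the combination, and the 3 triangles are H2BC1, H3C8 and H4C6 in HUCCT1.

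Against decitabine alone, 52 of 59 members were lower with the combination (3.26% of all genes called lower, 7.68% in either direction), with a median log2 fold change of −1.28. Against talazoparib alone, 47 were lower (0.567% of all genes called lower, 1.92% in either direction), with a median of −0.78. In both, all 16 H2B members were among them. Without combination replicate 2 the counts were 51 and 45 of 60. Against talazoparib, 5 H3 and 5 H4 members were called without talazoparib replicate 2, where 8 of each were called with all libraries.

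The combination was then set against the effects of both agents added on the log2 scale, a contrast that is 0 when the effects add up. Only 36 genes of 22406 were called in it, 0.161%, of which 34 were below 0 (0.152%), and 32 of the 36 were members. The other 4 were IRF7 and FST, below the sum by 2.70 and 0.76, and SPCS2P4 and RGPD6, above it by 2.74 and 4.85. All 59 members tested lay below 0, with a median of −0.76. By class, 4 of 5 H1, 8 of 13 H2A, 13 of 16 H2B, 4 of 11 H3 and 3 of 14 H4 members were called, while the medians ran from −0.81 in H1 and H2A to −0.63 in H4. H1-5 departed by −0.89 (SE 0.079, edgeR adjusted p = 5.6e-05), H2BC18 by −1.04 (SE 0.115), H3C7 by −0.89 (SE 0.089) and H4C5 by −0.85 (SE 0.13).

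The number called in this contrast depended on single libraries, because it uses all 4 groups. It was 28 of 60 without combination replicate 2, with 10 H2B and 1 H4 member among them, and 20 without vehicle replicate 2, with 7 H2B and 0 H4 members. Without talazoparib replicate 1, 1 H4 member was called. With no filter on low counts, 8 H3 and 8 H4 members were called, and with DESeq2 7 and 5.

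HUCCT1 cells, which received decitabine alone at the higher dose, had lower histone levels in every class. H1 was at 734 and 826 CPM in vehicle and at 497 and 589 with decitabine, H2A at 1132 and 1197 against 710 and 828.5, H2B at 1441 and 1496 against 901 and 865, H3 at 838 and 765 against 450.5 and 501, and H4 at 436 and 420 against 322 and 361. No decitabine library overlapped the vehicle libraries of its class. The sums were 69.6% of vehicle in H1, 66.1% in H2A, 60.2% in H2B, 59.3% in H3 and 79.8% in H4. The H4 share of all member counts was 9.52% and 8.92% in vehicle and 11.2% and 11.5% with decitabine, and 11% and 11.2% when H4C6 was left out.

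Of 62 members tested in HUCCT1, 38 were called lower and 3 higher, where 13.9% of all genes were called lower, 19.6% higher and 33.5% in either direction. The called members were 3 of 5 H1, 10 of 13 H2A, 12 lower and 1 higher of 18 H2B, 6 lower and 1 higher of 12 H3, and 7 lower and 1 higher of 14 H4. Median log2 fold changes were −0.42 in H1, −0.65 in H2A, −0.61 in H2B, −0.67 in H3 and −0.51 in H4, beside 0.002 over all genes. In these decitabine libraries COL1A1, a fibroblast marker, was at 159 and 189.5 CPM against 26.5 and 29.6 in vehicle. Of the other fibroblast markers, PDGFRB was at 2.37 and 2.84 CPM against 0.362 and 0.727, and COL3A1 was at most at 0.0659 CPM in HUCCT1. CD3E had 17 and 23 counts against 0 and 1 in vehicle. The other leukocyte markers did not rise alike, with PTPRC at 3 and 3 counts against 3 and 4 and CD68 at 9 and 6 against 4 and 8. Of the bile duct markers KRT7, KRT8, KRT18 and KRT19 were called lower and CDH1 higher. The part of these transcripts in the histone values was not tested.

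Within each class some members were called and others, also abundant ones, were not. In H1, H1-5 went from 201 and 227 CPM to 94.6 and 111 (log2 fold change −1.07, SE 0.113, edgeR adjusted p = 3.4e-08), whereas H1-4 was at 204 and 222 CPM in vehicle and at 167.2 and 204.5 with decitabine (−0.21, SE 0.113) and was not called. H1-1, with 256 and 281 counts against 244 and 246, was not called either. H1-2 was called at −0.42 (SE 0.113), but not without vehicle replicate 2 (adjusted p = 0.074) or decitabine replicate 1 (adjusted p = 0.13).

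H2AC13 led the decreases of H2A, from 93.8 and 92.9 CPM to 45.2 and 44.9 (−1.06, SE 0.110). H2AC20, the most abundant H2A gene of this line per kilobase, went from 251 and 270 CPM to 156 and 193 (−0.59, SE 0.113), and H2AC11, first in EGI-1, was at 85.3 and 89.95 CPM against 71.0 and 82.2 and was not called. H2AC7 had 11 and 22 counts against 23 and 15 and was not called. In H2B, H2BC7 went from 82.6 and 80.4 CPM to 31.5 and 27.7 (−1.47, SE 0.117, edgeR adjusted p = 2.4e-10), H2BC12 from 298 and 322 to 186 and 192 (−0.73, SE 0.106), and H2BC18 from 237 and 273 to 133.5 and 127 (−0.98, SE 0.109). H2BC14, which had the largest decrease with the combination in EGI-1, had 215 and 271 counts in vehicle and 257 and 240 with decitabine here.

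In H3, the lowest log2 fold change was that of H3C14 (−1.57, SE 1.09), which was not called, on 37 and 176 counts against 29 and 44, and the lowest called was that of H3C11 (−1.35, SE 0.117). H3C7 went from 223 and 175.5 CPM to 91.0 and 85.3 (−1.19, SE 0.12) and H3C2 from 209 and 190.0 to 114 and 125 (−0.75, SE 0.109). In H4, H4C2 went from 61.2 and 55.8 CPM to 34.8 and 42.9 (−0.60, SE 0.122), while H4C3 (−0.17, SE 0.110), H4C8 (−0.21, SE 0.113) and H4C16 (−0.10, SE 0.113) were not called. H4C14 was called lower at −1.54 (SE 0.465, edgeR adjusted p = 0.012) on 20 and 63 counts against 15 and 14, and was not called by DESeq2 (adjusted p = 0.06) or without vehicle replicate 2 (adjusted p = 0.61).

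The 53 members lower with the combination in EGI-1 and the 38 lower with decitabine in HUCCT1, 2 comparisons that share no library, had 37 members in common, which is 69.8% of the first list and 97.4% of the second. Since 53 of all 59 members tested in EGI-1 were on the first list, most of any list of members would be shared with it. The member lower in HUCCT1 alone was H4C4, which is near silent in EGI-1.

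The 3 members called higher in HUCCT1 were genes at or near 0 in its vehicle cells. They passed the filter on low counts through the decitabine libraries alone. A gene silent in vehicle could enter this test only if it was high with decitabine, so the direction was fixed in advance. The adjusted p-values of these 3 genes are therefore no independent support for the rise. H3C8 had 1 and 4 counts in vehicle and 467 and 637 with decitabine, or 0.0329 and 0.132 against 14.6 and 21.5 CPM. The ratio was 217 with a 95% counting interval from 92.8 to 670 (log2 fold change 7.69, SE 0.341, edgeR adjusted p = 2.3e-15). H4C6 had 0 and 0 counts in vehicle and 229 and 279 with decitabine, at least 83.7-fold higher against a floor of 3 counts per library (edgeR adjusted p = 1.8e-13). Both genes were well expressed in EGI-1, H3C8 at 391 and 320 CPM and H4C6 at 78.2 and 61.3 CPM in vehicle, and there neither was called with decitabine, at 302 and 342 CPM and at 67.01 and 72.1 CPM. H2BC1, a histone gene known from the testis, had 0 and 2 counts in HUCCT1 vehicle and 43 and 29 with decitabine, a ratio of 35.4 with a counting interval from 9.45 to 298 (edgeR adjusted p = 7.5e-06). Its divergent partner H2AC1, also a testis gene, had 0 and 0 counts against 11 and 3, at least 2.25-fold higher and too few to be tested. Both were at 0 in all EGI-1 libraries. Counting intervals and floors cover counting error only.

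EGI-1 had silent members of its own, and these were other genes. H3C3 had 0 and 0 counts in EGI-1 vehicle and 3271 and 3441 in HUCCT1 vehicle, H4C4 12 and 8 against 2037 and 1923, H1-1 15 and 2 against 256 and 281, and H2BC3 2 and 3 against 38 and 21. In EGI-1 they stayed low with decitabine, where H3C3 had 0 and 2, H4C4 9 and 17, H1-1 9 and 13, and H2BC3 1 and 3 counts, and with the combination, where H3C3 had 0 and 0 and H4C4 9 and 5. In HUCCT1, H3C3 was at 108 and 114 CPM in vehicle and at 85.6 and 104 with decitabine, and H4C4 was called lower (−0.52, SE 0.114, edgeR adjusted p = 0.00079). At these depths a level under 3 counts per library cannot be told from 0.

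The 250 bases before the start of these 4 core histone genes are printed because decitabine lowers the methylation of CpG, with each CpG in capitals, on the strand of the gene and on GRCh38.p14. H3C8 lies at chr6:26271414-26271663 on the minus strand, H4C6 at chr6:26240143-26240392 on the plus strand, H3C3 at chr6:26045134-26045383 on the plus strand and H4C4 at chr6:26189113-26189362 on the minus strand.
H3C8: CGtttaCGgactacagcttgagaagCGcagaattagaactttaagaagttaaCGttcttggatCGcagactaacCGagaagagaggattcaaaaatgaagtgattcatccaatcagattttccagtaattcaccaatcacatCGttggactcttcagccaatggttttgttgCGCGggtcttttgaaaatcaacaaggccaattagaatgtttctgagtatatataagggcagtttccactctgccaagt
H4C6: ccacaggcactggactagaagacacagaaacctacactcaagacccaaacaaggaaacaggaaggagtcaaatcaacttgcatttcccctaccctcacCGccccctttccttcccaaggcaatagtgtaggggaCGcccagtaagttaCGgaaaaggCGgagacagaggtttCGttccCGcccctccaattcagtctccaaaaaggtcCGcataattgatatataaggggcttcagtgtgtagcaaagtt
H3C3: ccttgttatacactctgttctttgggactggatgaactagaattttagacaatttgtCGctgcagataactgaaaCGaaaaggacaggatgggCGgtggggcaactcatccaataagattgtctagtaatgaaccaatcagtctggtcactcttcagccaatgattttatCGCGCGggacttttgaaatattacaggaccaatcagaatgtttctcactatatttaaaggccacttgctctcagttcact
H4C4: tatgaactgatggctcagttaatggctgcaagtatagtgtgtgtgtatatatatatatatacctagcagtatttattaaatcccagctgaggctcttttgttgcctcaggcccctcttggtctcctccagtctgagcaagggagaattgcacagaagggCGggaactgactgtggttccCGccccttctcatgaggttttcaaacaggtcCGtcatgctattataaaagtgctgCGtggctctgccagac
They hold 9 CpG in H3C8, 7 in H4C6, 6 in H3C3 and 4 in H4C4. Over the windows that also take in the 50 bases after the start, the counts were 10, 8, 8 and 8, against medians of 9 in H3 members, 16 in H4 members and 14 in all 35116 windows. DNA methylation was not measured in the data used here.

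The silent genes had expressed members near them, and some of their neighbours were near silent too. In HUCCT1 vehicle cells H2BC10, whose start lies 1518 bases from that of H3C8, was at 24.9 and 28.5 CPM, and H2BC9 and H3C7, at 19799 and 20778 bases, were at a mean of 60.7 and 199 CPM. Around H4C6, H1-3 at 5406 bases was at a mean of 57.6 CPM. H4C7, which lies between H4C6 and H3C7, was at 0 in all 4 HUCCT1 libraries and had at most 3 counts in EGI-1. In EGI-1, H2BC3, which starts 1671 bases from H3C3, was near silent too, while H2AC4 and H1-2, at 11766 and 11086 bases from H3C3, were at means of 122 and 453 CPM. H1-1, at 27597 bases from H3C3, was at a mean of 0.282 CPM in EGI-1 vehicle cells. Around H4C4 there, H3C4 and H2AC7, at 8174 and 10181 bases, were at means of 0.103 and 0.532 CPM. H2BC7, at 10404 bases from H4C4, was at a mean of 90.7 CPM in EGI-1 vehicle cells. H3C4 and H2AC7 were as low in HUCCT1 vehicle cells, at means of 0.181 and 0.545 CPM, where H4C4 was at 65.3 CPM. Both lie in exons of another gene, and whether their low counts come from the assignment of reads was not tested.

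Between the untreated lines, 45 of 62 members were lower and 8 higher in HUCCT1 than in EGI-1, where 27.3% of all genes were lower, 28.5% higher and 55.8% called in either direction. The names of the HUCCT1 libraries carry the tag L3 and those of EGI-1 the tag L4, whose meaning is not stated, and anything these tags stand for cannot be told apart from the line. The median log2 difference of the members was −0.85, beside −0.008 over all genes. It was −0.66 in H1, −0.67 in H2A, −0.55 in H2B, −1.32 in H3 and −1.36 in H4. The share of H2B among member counts was 31.5% and 31.8% in HUCCT1 and 24.8% and 25.3% in EGI-1, and that of H3 was 18.3% and 16.3% against 24.1% and 23.4%. Without H3C8, the H3 share in EGI-1 was 20.6% and 20.3%.

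The members higher in HUCCT1 were the 4 near-silent genes of EGI-1 and 4 others. Of the near-silent genes, H3C3 and H2BC3 passed the filter on low counts through the HUCCT1 libraries alone. H3C3 was at least 1070-fold higher against the floor, H4C4 190-fold (counting interval 123 to 312), and H2BC3 11.3-fold (4.6 to 36.2). H1-1, for which the EGI-1 libraries differed too much for a single ratio, was at 0.492 and 0.0719 CPM in EGI-1 and at 8.43 and 9.28 CPM in HUCCT1. The others differed little, namely H2AC25 by 0.65 (SE 0.123), H2AC20 by 0.45 (SE 0.100), H2BC26 by 0.39 (SE 0.118) and H2BC18 by 0.26 (SE 0.090) on the log2 scale. All 4 lie on chromosome 1, which holds 11 members, and the rest of those were not called higher. In the other direction, H4C6 was at least 705-fold lower in HUCCT1 and H3C8 4330-fold lower (counting interval 1860 to 13300), followed on the log2 scale by H4C1 with −2.68 (SE 0.181), H2BC10 with −2.40 (SE 0.089), H2BC11 with −2.39 (SE 0.117) and H2AC11 with −2.24 (SE 0.096).

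**Figure D3:**
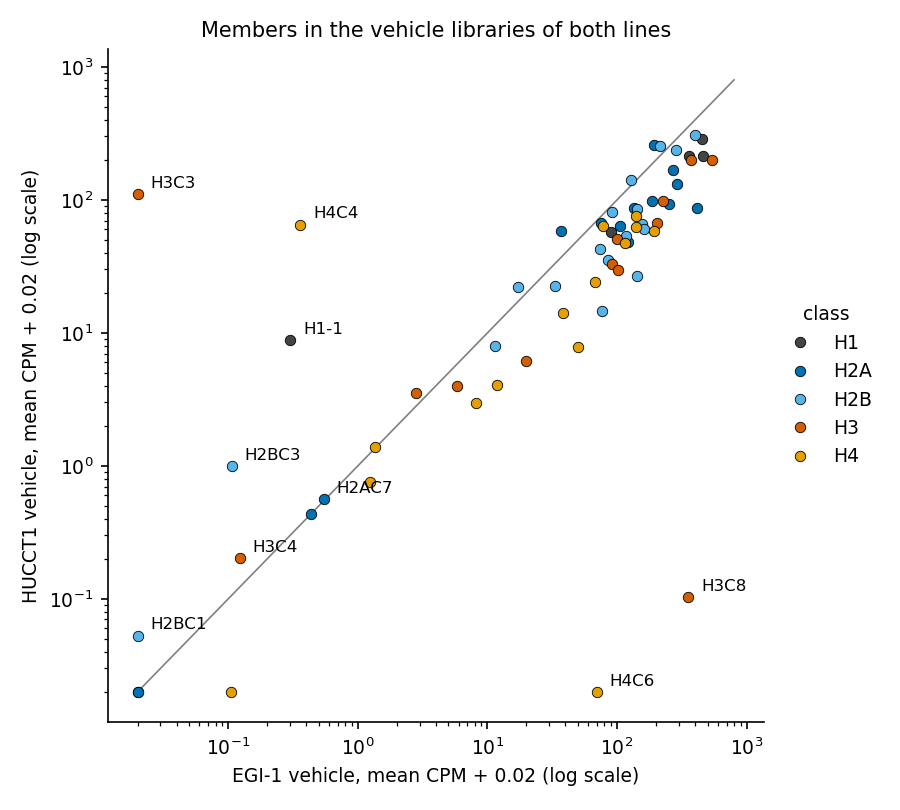
Mean CPM of the 2 vehicle libraries plus 0.02 in EGI-1 (horizontal axis) and HUCCT1 (vertical axis) for each member, both on log scales, coloured by class, with a line of equal levels. Most members lie below the line, H3C3, H4C4, H1-1 and H2BC3 lie far above it, and H3C8 and H4C6 far below it.

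Decitabine effects were also tested against each other between the lines, at their different doses of 1 and 0.5 µM. In 33 of 62 members the effect was lower in HUCCT1 and in 2 higher (edgeR, Benjamini-Hochberg), where 7.2% of all genes were lower, 8.74% higher and 15.9% called in either direction. The called members were 3 of 5 H1, 9 of 13 H2A, 12 of 18 H2B, 5 lower and 1 higher of 12 H3, and 4 lower and 1 higher of 14 H4, and without EGI-1 vehicle replicate 2 or HUCCT1 decitabine replicate 1 only 2 H4 members were called. The median log2 difference was −0.56, beside 0.03 over all genes. The largest called differences below 0 were those of H2BC7 (−1.45, SE 0.133), H2BC13 (−1.30, SE 0.132), H3C11 (−1.30, SE 0.108) and H3C7 (−1.21, SE 0.131). Those above 0 were H3C8 (7.84, SE 0.468, edgeR adjusted p = 5.8e-07) and H4C6 (adjusted p = 4.6e-11).

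Genes that act on histone mRNA and protein are given beside the shares called over all genes, which with the combination in EGI-1 were 18.7% in either direction and 7.61% lower, and with decitabine in HUCCT1 33.5%, with 19.6% higher and 13.9% lower. Of 20 genes of histone gene transcription and mRNA 3′ end processing, 3 were higher and 2 lower with the combination in EGI-1, with a median log2 fold change of 0. The higher ones were the CDK inhibitor CDKN1A (1.09, SE 0.0755), the kinase CDK2 (0.63, SE 0.0642) and its partner cyclin E, CCNE1 (0.41, SE 0.0812). The lower ones were the S phase transcription factor E2F1 (−0.34, SE 0.091) and POU2F1 (−0.31, SE 0.0699), which binds the octamer. SLBP was at 111 and 117 CPM in vehicle and 124 and 125 with the combination (0.12, edgeR adjusted p = 0.25). Of 16 tested genes of histone mRNA decay, only the helicase UPF1 was called (0.22, SE 0.0636).

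In HUCCT1 with decitabine, 2 of these 20 genes were higher and 6 lower. NPAT, the coactivator that drives histone gene transcription (−0.39, SE 0.127), CASP8AP2, also called FLASH (−0.72, SE 0.132), and LSM11, of the U7 particle that processes the 3′ ends (−0.46, SE 0.15), were among the lower ones, with CCNE2, CDK2 and E2F1. LSM10 (0.37, SE 0.129) and CDKN1A (0.64, SE 0.116) were higher. In the decay list 4 of 16 were lower, namely EXOSC10, ATR, TUT4 and DCP2, and 0 were higher.

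In the S phase list members were called lower in both lines and none higher, again to be read beside 7.61% of all genes lower in EGI-1 and 13.9% in HUCCT1. Their list shares SLBP, CASP8AP2 and CCNE2 with the transcription list and NASP, MCM2 and CHAF1B with the chaperone list. With the combination in EGI-1, 19 of 43 were lower and 0 higher, with a median of −0.22 and a summed level of 3713 and 3760 CPM against 4403 and 4347. MCM6 (−0.86, SE 0.0605), MCM5 (−0.80, SE 0.058) and PCNA (−0.61, SE 0.0559), parts of the replication machinery, led them. In HUCCT1 with decitabine 29 of 43 were lower, with a median of −0.43 and 2861 and 2845 CPM against 3937 and 3858, and CDCA7 led with −1.45 (SE 0.136). Of the histone chaperones, which carry histones to and from DNA, 7 of 23 were lower in EGI-1 with the combination and 11 of 23 in HUCCT1 with decitabine, and 0 were higher in either.

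Replacement histones were listed as well, most but not all of which have polyadenylated mRNAs made through the cell cycle. Among them, H2AJ went from 18.8 and 17.2 CPM to 13.6 and 12.1 with the combination in EGI-1 (−0.50, SE 0.119) and H1-10 from 30.5 and 32.4 to 16.5 and 17.2 CPM (−0.91, SE 0.23). H2AZ2 (−0.39, SE 0.0601), MACROH2A2 (−0.38, SE 0.0743) and H2AX (−0.35, SE 0.0652) were also called lower there. In HUCCT1 with decitabine H2AZ1 (−0.37, SE 0.112), MACROH2A2 (−0.59, SE 0.171) and H3-3B (−0.31, SE 0.106) were called lower, and H2AJ was not called (0.045, SE 0.129). Of other RNAs without a poly(A) tail, most did not pass the filter on low counts. RN7SK, RN7SL2, RMRP and RPPH1 were at 0 in all libraries, and RN7SL1 was at 1962 to 4738 CPM. Whether these zeros come from the assignment of reads was not tested. With the combination, 1 of 10 tested was lower, the U3 RNA SNORD3A (−0.60, SE 0.202), with a list median of −0.36. In HUCCT1, 1 of 11 was higher, RNU4ATAC, with a list median of 0.285.

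Chromosome and transcript form were then set beside the changes. The median log2 fold change with the combination was −1.53 over the 11 members on chromosome 1 and −1.32 over the 47 tested on chromosome 6, and H4C16 had −1.03 (SE 0.086). In HUCCT1 with decitabine the medians were −0.82 and −0.50, with 8 of 11 members on chromosome 1 and 30 of 50 on chromosome 6 called lower. The 17 tested members with a long annotated transcript had a median of −1.37 with the combination and the 42 others one of −1.31. H2A and H2B members with the octamer had a median of −1.39 and 20 of 22 called lower, and those without it −1.29 and 6 of 6.

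Calls were fewer among members that share sequence with other genes. Among 41 tested members with every 100-base stretch unique in the annotation, 39 were lower with the combination with a median of −1.33. Among 10 with under 50% of such stretches unique, 6 were lower with a median of −1.04, and most of these had few counts.

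In the annotation 12 H2A genes lie head to head with an H2B gene, with 194 to 251 bases between their starts, and both genes of a pair were often unequal. In EGI-1 vehicle cells H2AC14 was at 607.7 CPM per kilobase and H2BC14 at 24.6, while H2AC17 was at 0.854 and H2BC17 at 307.7, and H2AC7 at 1.04 and H2BC7 at 191.8. H2AC17 and H2AC7 lie in exons of other genes on the same strand, so whether their low counts come from the assignment of reads was not tested. H2BC12 exceeded H2AC12, at 803.7 against 293.8. These orders were the same in HUCCT1 vehicle cells, with 278.5 against 17.1 for H2AC14 and H2BC14, 0.846 against 183.7 for H2AC17 and H2BC17, 1.07 against 172.4 for H2AC7 and H2BC7, and 626.7 against 189 for H2BC12 and H2AC12. With the combination in EGI-1 the pair of H2AC14 and H2BC14 changed unequally, by −1.16 (SE 0.073) and −2.42 (SE 0.17) on the log2 scale, a difference that was not tested.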

How the data were processed

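RNA-seq libraries of EGI-1 (8) and HUCCT1 (4) cells were analysed from the deposited table of raw gene counts, keyed by Ensembl gene. Per the labels, the authors trimmed reads with fastp and Trim Galore, aligned them to GRCh38 with HISAT2 and counted them with featureCounts, without normalization. The study's methods name STAR and RSEM instead for EGI-1 and a stranded kit with ribosomal depletion, so poly(A) selection, which would lose most histone mRNA, is not settled, and the versions of HISAT2 and featureCounts, the annotation and the strand and multi-mapping settings of counting are not given in the sources used here. Total counts ran from 23139065 to 34965627 per library. Symbols matched 60437 genes and 214 had none.

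Members were all counted genes meeting the naming rule, and the lists of related genes were chosen with earlier results of these data known. edgeR 4.0.16 in R 4.3.3 (filterByExpr, TMM, robust quasi-likelihood test, Benjamini-Hochberg adjusted p under 0.05 over all genes) was fitted to the 8 EGI-1 libraries (22406 genes), to the 4 HUCCT1 libraries (22479) and, for line contrasts, to all 12 (25096). Printed CPM use the 12-library factors. Genes named were the 3 leaders by level and the largest and smallest change of each class, and members called against the direction of most. Other members were named after their values were seen. Alternatives were DESeq2 1.42.0, DESeq2 and upper-quartile factors, no filter, only the libraries of both arms, leaving out each library and a replicate block. Code was tested on simulated data. Sequences came from GENCODE 44 and RefSeq. Replicate numbers share no stated origin and were not used to pair libraries. Some genes of the marker and replacement histone lists are not reported here.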

Additional observations from a re-analysis of the deposited data

Results flagged for a closer look

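The effect of decitabine differed between the lines in 35 of 62 histone members by the test of the difference itself (edgeR, Benjamini-Hochberg), with doses of 1 µM in HUCCT1 and 0.5 µM in EGI-1. Over all genes tested, 15.9% were called in this contrast, 7.2% lower and 8.74% higher. By class the called members were 3 H1, 9 H2A, 12 H2B, 6 H3 and 5 H4 members. Among the linker histone genes named in the report, the log2 difference of HUCCT1 from EGI-1 was −0.46 in H1-2, −0.72 in H1-3 and −1.03 in H1-5. In the H2A genes it was −1.01 in H2AC13, −0.83 in H2AC16, −0.64 in H2AC20, −0.57 in H2AC25 and −0.51 in H2AC6. In the H2B genes it was −0.70 in H2BC12, −1.06 in H2BC15, −0.99 in H2BC18, −0.51 in H2BC26, −0.52 in H2BC4 and −1.45 in H2BC7. In H3 genes it was −0.72 in H3C2 and −1.21 in H3C7, and in H4C2 it was −0.50. H3C8 differed by 7.84 in the other direction, and so did H4C6 (edgeR adjusted p = 4.6e-11), whose size has no estimate because HUCCT1 vehicle libraries held 0 counts.

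Leukocyte transcripts, which lie outside the histone comparisons, were found in EGI-1 combination replicate 2 above all other EGI-1 libraries, with 381 counts of PTPRC and 148 of CD3E. The T cell genes CD2, CD3D, CD3G and TRAC, looked up after these values were seen, had 54, 46, 34 and 122 counts there, and at most 1, 3, 0 and 7 in the other EGI-1 libraries.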

How the results depend on the processing

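Over 9 comparisons, the counts of called members in total and by class kept their size within 1.5 times in 629 of 648 recalculations under other tools, scalings, filters and sample sets. Most of the others lay in the contrast of the combination with the added single effects. There, 8 H3 and 8 H4 members were called with no filter on low counts, 7 and 5 with DESeq2, and 7 H3 members with a block by the series in the library names. Leaving out each library in turn gave 20 to 36 members in this contrast, 7 to 13 in H2B and 0 to 4 in H4. It gave 4 to 10 H2A, 4 to 7 H3 and 3 to 7 H4 members for talazoparib against vehicle, 5 to 8 H3 and 5 to 8 H4 members for the combination against talazoparib, and 2 to 6 H4 members for the difference of the decitabine effect between lines. The median log2 fold change with the combination ranged from −1.40 to −1.21 (−1.395 to −1.207). Upper-quartile factors gave a median of −0.97 (−0.966) between the lines, where they moved the median of all genes by −0.12. With raw library totals in place of TMM factors, all members summed to 9018 CPM with vehicle, 8740 with decitabine, 6231 with talazoparib and 3610 with the combination in EGI-1, and to 4087 in HUCCT1 vehicle and 2769 in HUCCT1 decitabine cells. Values near 0 changed sign. H1-1 ranged from −1.05 to 1.66, H2AC7 from −0.023 to 0.29 and H4C4 from −1.05 to 0.10 (0.097) for the combination, and H2AC7 from −0.26 to 0.72, H2BC3 from −0.58 to 0.75 and H2BC14 from −0.17 to 0.16 for decitabine in HUCCT1, when each library was left out. H2BC14 was at 0 with DESeq2 and with its size factors, 0.02 (0.023) with upper-quartile factors and 0.006 with the replicate block. The causes were not tested. Replicate numbers were not used to pair the libraries. Deviations of same-numbered libraries correlated at −0.218 to 0.15 in EGI-1 and 0.231 in HUCCT1. The names of the EGI-1 libraries form series that cross the replicate numbers at vehicle, so these correlations do not test a pairing by series. A replicate block by number gave 54 members for the combination against vehicle, 42 for talazoparib, 29 beyond the added effects and 47 for decitabine in HUCCT1. Members under 3 counts per library were limited by depth.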
